A study of Homo sapiens with 1 sample.

Results

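The glutamate and GABA receptor subunits are the genes whose symbols name an AMPA (GRIA), kainate (GRIK), delta (GRID), NMDA (GRIN) or metabotropic (GRM) glutamate receptor subunit, or a GABA-A (GABR) or GABA-B (GABBR) receptor subunit. They were chosen by symbol alone, and 47 of the 33538 genes in the count table matched. All cells were of the H9 line, which is established from human embryonic stem cells, with the WT genotype and the human form of HAR123 (hHAR123), an enhancer inside the gene SMG6 that has diverged quickly in humans. They had been turned towards neural progenitor cells (NPCs) over 2 days as adherent colonies, 5 days in rotation and 7 days after replating, with dorsomorphin and SB431542, which block both branches of SMAD signalling, present up to replating. Independent clones were pooled and taken before rosette selection, and the RNA of single cells was counted with the 10x 3′ HT method. There was 1 library of 1 group and no replicate, so no test was possible, and all comparisons were made between cells of that library.

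Glutamate and GABA are the main excitatory and inhibitory transmitters of the brain. AMPA, kainate, NMDA and GABA-A receptors are ion channels assembled from several subunits, while metabotropic glutamate receptors and GABA-B receptors signal through G proteins. These receptors are known mostly from synapses, but dividing neural progenitors also carry some of them before synapses form, and GABA can depolarize such cells because their chloride is high.

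Cells with 2000 to 10000 detected genes and a mitochondrial share of UMIs (unique molecular identifiers, counted molecules) below 0.1 were used, which left 13925 of 14726 barcodes with 314660383 UMIs. Levels are counts per 1000000 UMIs of all cells in a group (CPM). Their 95% Poisson intervals, the exact conditional intervals of ratios and the exact binomial intervals of shares cover counting error only. Clustering without the receptor genes gave 10 clusters, of which clusters 1, 2, 3, 5, 6 and 7 with 11121 cells (79.9%) were forebrain NPC-like and clusters 4 and 9 with 1996 cells (14.3%) were contractile NPC-like. Cluster 10 with 106 cells (0.761%) was differentiating-progenitor-like. Cluster 8 with 702 cells passed the forebrain thresholds, but 2 contractile markers also passed theirs, and it was left unnamed. The summed level of the 7 listed contractile markers was 1017 CPM in forebrain, 10789 CPM in contractile, 304 CPM in differentiating and 7984 CPM in cluster 8 cells. The 9 forebrain markers summed to 1213 CPM in forebrain and 783 CPM in contractile cells, and LHX2 (175 and 46.8 CPM) and OTX2 (114 and 34.9 CPM) were among those lower in the latter. The 5 epithelial markers summed to 158 CPM in forebrain, 574 CPM in contractile, 71.1 CPM in differentiating and 727 CPM in cluster 8 cells, mostly KRT8 and KRT18, with CDH1 under 1 CPM in all 4 groups. Of the differentiating markers, 3 of 10 lay under 1 CPM in forebrain cells, and their sum was 519.5 CPM there and 5800 CPM in cluster 10. Of 5 mesoderm markers only EOMES, which is also made by intermediate progenitors, had UMIs in cluster 10 (179 CPM), and glia markers summed to 3.80 to 9.53 CPM in these 4 groups. Median depth was 16515 UMIs a cell in forebrain, 32353.5 in contractile, 13414 in differentiating and 50766.5 in cluster 8 cells.

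All 47 receptor genes had at least 1 UMI, as had 88.0% of all genes. At a level of 1 CPM or more were 25 of the 47, against a background of 46.6% of all genes in the table. Among genes spanning at least 100 kb, a span that many receptor genes reach, the background was 78.1%. GABRG3 and GRIA1 lay above 100 CPM, 10 genes between 10 and 100 CPM and 13 between 1 and 10 CPM. The remaining 22 genes ranged from 0.0159 to 0.858 CPM (5 to 270 UMIs). A kept cell showed a median of 5 receptor genes, and 98.8% of cells had a UMI of at least 1 of them. Thinned to 5000 UMIs, cells showed 2.26 receptor genes on average. The share of low levels that came from free RNA was not tested. NEUROD1, at 178 CPM in cluster 10, was at 0.136 CPM in forebrain cells, and TAGLN, at 4506 CPM in contractile cells, was at 182 CPM there. No cell type of the library is known to lack GABRG3 or GRIA1, so their shares of cells had no such background, and the lowest levels were in cluster 9 (15.1 CPM) for GABRG3 and in the same cluster (25.2 CPM) for GRIA1.

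**Figure D1:**
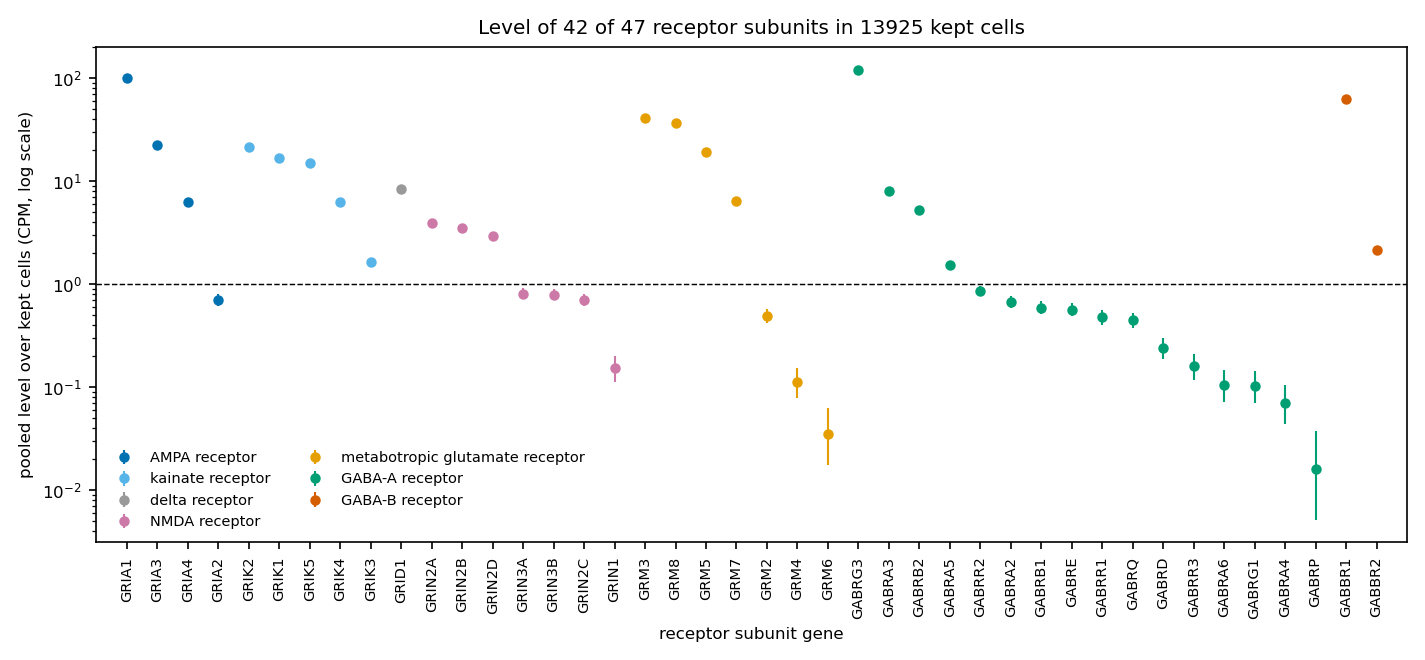
Pooled level of 42 of the 47 receptor subunit genes over the 13925 kept cells in CPM on a log axis, grouped and coloured by receptor family; bars are 95% Poisson intervals and the dashed line marks 1 CPM. GABRG3 (121 CPM) and GRIA1 (102 CPM) stand highest, and GRIN1 (0.153 CPM) lies below the GRIN2 genes of its family.

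Of the AMPA receptor subunits, which form the fast excitatory channel, GRIA1 was at 102 CPM (101 to 103) and was seen in 50.6% of cells. GRIA3 was at 22.3 CPM (21.8 to 22.8) and GRIA4 at 6.31 CPM (6.04 to 6.599). GRIA2, whose edited product keeps calcium out of the channel, was at 0.696 CPM (0.607 to 0.795) with 219 UMIs in 1.14% of cells. GRIA1 held 77.6% of all AMPA receptor UMIs.

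The 5 kainate receptor subunits were all above 1 CPM. GRIK2 (21.7 CPM) and GRIK1 (16.8 CPM), which can form channels by themselves, were in 20.3% and 21.6% of cells. GRIK5 (15.1 CPM, 26.7% of cells) and GRIK4 (6.31 CPM), which need a partner among the other subunits, were present as well, and GRIK3 was lowest at 1.63 CPM (1.49 to 1.77). The delta receptor subunit GRID1, which organizes synapses rather than answers to glutamate, was at 8.42 CPM.

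NMDA receptors need GRIN1 in every channel, joined by GRIN2 or GRIN3 subunits. GRIN2A was at 3.95 CPM (3.73 to 4.17), GRIN2B at 3.51 CPM (3.31 to 3.72) and GRIN2D at 2.95 CPM (2.76 to 3.14). GRIN1 itself was at 0.153 CPM (0.112 to 0.202), with 48 UMIs in 48 cells (0.345%, 0.254 to 0.457%). Per 100 kb of gene span GRIN1 was at 0.502 CPM, GRIN2A at 0.919, GRIN2B at 0.645 and GRIN2D at 5.75, so that GRIN1, a short gene, was closer to GRIN2A and GRIN2B on that scale. A UMI of a GRIN2 gene was found in 2176 cells (15.6%), and UMIs of GRIN1 and GRIN2 together in 8 cells (0.0575%, 0.0248 to 0.113%). These were 8 of the 48 cells with GRIN1, beside the 15.6% of all cells with GRIN2, so the count mostly follows how rarely GRIN1 was seen.

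Among the metabotropic glutamate receptors, GRM3, which lowers cyclic AMP, was at 41.3 CPM (40.6 to 41.99) in 46.6% of cells. GRM8, also coupled to inhibition of cyclic AMP, was at 37.0 CPM (36.3 to 37.7) in 30.6% of cells. GRM5, which releases calcium from internal stores, was at 19.4 CPM (19.0 to 19.9). GRM7 was at 6.496 CPM, and GRM2, GRM4 and GRM6 lay under 1 CPM, GRM6 with 11 UMIs in all.

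GABA-A receptors usually combine alpha, beta and gamma subunits. The gamma subunit GABRG3 was at 121 CPM (119 to 122) and was seen in 71.96% of cells, or 39.7% of thinned cells. Of the alpha subunits GABRA3 was at 8.05 CPM (7.74 to 8.37) and GABRA5 at 1.53 CPM (1.40 to 1.68), and the beta subunit GABRB2 was at 5.20 CPM (4.95 to 5.46). Of the GABA-A genes, 14 lay under 1 CPM. UMIs of an alpha, a beta and a gamma gene met in 1203 cells (8.64%), and in 0.604% of thinned cells. An alpha gene by itself was seen in 17.7% of cells. The share to be met if the subunits were seen independently was not counted.

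The genes of GABA-A receptors lie in groups, and these groups differed in level (coordinates of GENCODE genes on GRCh38). The 4 genes of the chromosome 4 group (chr4:46035769-47426447), GABRG1, GABRA2, GABRA4 and GABRB1, all lay under 1 CPM. On chromosome X (chrX:151953124-152657542) only GABRA3 of 3 reached 1 CPM. The strand setting of the counting is not stated, so reads of genes that overlap on opposite strands, as part of GABRA5 does, may not be assigned with certainty.

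GABA-B receptors need both of their subunits, GABBR1, which binds GABA, and GABBR2, which reaches the G protein. GABBR1 was at 63.4 CPM (62.5 to 64.2) in 67.0% of cells, while GABBR2 was at 2.16 CPM (2.00 to 2.33) in 3.30%. Both were seen together in 315 cells (2.26%), a share that cannot exceed the 3.30% with GABBR2. The share to be met if the 2 genes were seen independently was not counted. GABBR1 held 96.7% of the UMIs of the pair.

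Gene length goes with level in such counts, so levels of different genes were also set per 100 kb of gene span. The counts are per gene and do not separate spliced from unspliced RNA. What part of a long gene's level was unspliced was not tested. On that scale GABBR1 came first with 80.9 CPM per 100 kb, followed by GRIA1 (31.4), GABRG3 (21.1), GRIK5 (21.1) and GRM3 (18.7). The alpha subunits GABRA3 (2.82) and GABRA5 (1.87) were below GABRG3, GABBR2 (0.514) was below GABBR1, and GRIA2 (0.380) was below GRIA1. GABRG3 led by CPM but not per length. The median span was 403 kb for the receptor genes at 1 CPM or more and 53.3 kb for those under it. All genes of the table at 1 CPM or more had a median span of 36.5 kb. Over the 47 genes, Spearman's rho of level and span was 0.672, given as a description, since all points share 1 library. Among all genes of the table with a span of at least 100 kb, 78.1% reached 1 CPM. Not all receptor genes of that span did, and GABRB1 (433 kb), GABRA2 (232 kb) and GRIA2 (183 kb) were among those under it.

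**Figure D2:**
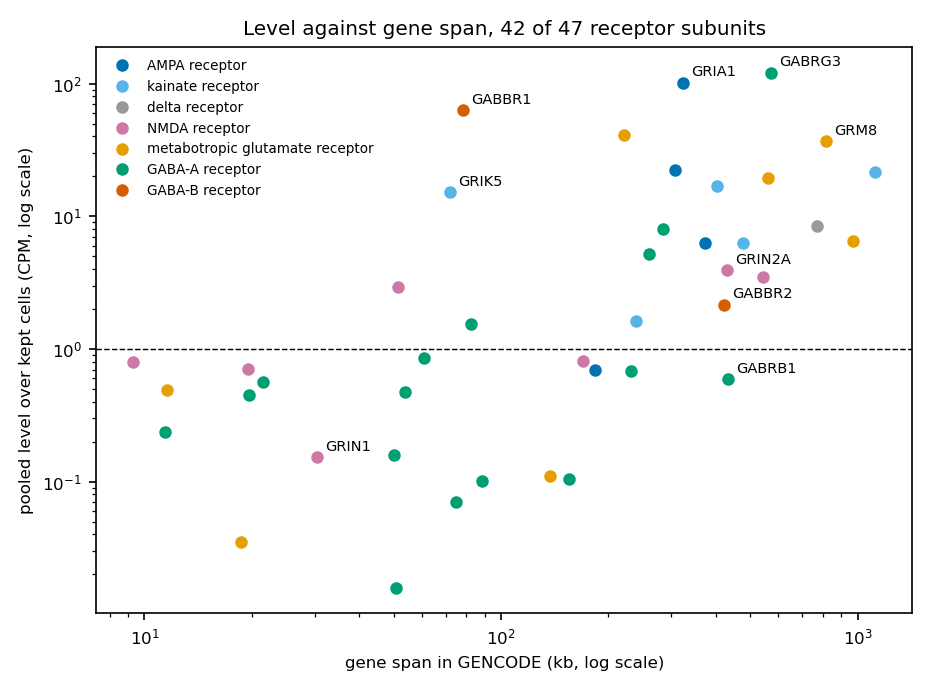
Level over kept cells in CPM against gene span in kb, both on log axes, for 42 of the 47 receptor subunit genes coloured by family, with the dashed line at 1 CPM. Most long genes lie above the line and most short genes below it, with GABBR1 and GRIK5 above it and GABRB1 below it as exceptions that are labelled.

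The sequences upstream of 4 receptor genes are shown to set genes with a high level in forebrain cells beside genes with a high ratio in differentiating cells. They are the 250 bases before the start of GABRG3 (chr15:26970931-26971180, plus strand) and GRM3 (chr7:86643659-86643908, plus strand), the highest in forebrain NPC-like cells. For the differentiating class they are those of GABBR2 (chr9:98708936-98709185, minus strand) and GRIN3A (chr9:101738648-101738897, minus strand), with the highest ratios to forebrain cells. Only the 13 genes with a single RefSeq start and no annotated exon in the window were considered, and the letters are RefSeq's on GRCh38.p14, 5′ to 3′ on the gene's strand. Capitals mark CG, the dinucleotide that is methylated in human DNA.
GABRG3: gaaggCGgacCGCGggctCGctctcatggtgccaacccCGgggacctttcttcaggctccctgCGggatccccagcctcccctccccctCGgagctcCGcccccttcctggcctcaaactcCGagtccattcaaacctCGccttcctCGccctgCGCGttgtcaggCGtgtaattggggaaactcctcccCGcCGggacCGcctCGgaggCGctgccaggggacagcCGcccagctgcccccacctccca
GRM3: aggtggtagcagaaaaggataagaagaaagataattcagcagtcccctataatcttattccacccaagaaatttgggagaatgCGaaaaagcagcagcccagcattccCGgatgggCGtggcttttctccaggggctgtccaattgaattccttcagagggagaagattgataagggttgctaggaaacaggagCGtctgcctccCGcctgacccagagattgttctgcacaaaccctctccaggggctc
GABBR2: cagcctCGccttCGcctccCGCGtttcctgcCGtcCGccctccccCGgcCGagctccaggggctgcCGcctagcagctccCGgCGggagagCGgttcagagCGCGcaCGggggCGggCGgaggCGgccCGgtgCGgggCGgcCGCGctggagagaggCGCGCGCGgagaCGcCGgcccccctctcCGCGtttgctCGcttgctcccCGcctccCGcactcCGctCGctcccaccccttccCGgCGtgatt
GRIN3A: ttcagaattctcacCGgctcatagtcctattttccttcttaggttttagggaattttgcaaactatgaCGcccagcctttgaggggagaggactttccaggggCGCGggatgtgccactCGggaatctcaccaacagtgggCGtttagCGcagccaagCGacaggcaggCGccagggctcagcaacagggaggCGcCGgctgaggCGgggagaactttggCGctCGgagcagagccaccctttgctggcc
CG occurs 20 times in the GABRG3 window, 5 times in that of GRM3, 38 times in that of GABBR2 and 14 times in that of GRIN3A. The ratio of CG found to CG expected from base composition was 0.706, 0.321, 1.01 and 0.653 in this order. Both high and low CG content therefore occurred upstream of genes on in forebrain cells. A ratio of at least 0.6 was found in 11 receptor genes at 1 CPM or more plus 6 under 1 CPM. Together, out of the 34 in the promoter table, they stand against 47.5% of all 35116 promoters. Spearman's rho of ratio and level over the 34 genes was 0.319.

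By cell class, forebrain NPC-like cells were set against contractile NPC-like cells, named by their contractile markers, such as TAGLN and ACTA2, alone. Forebrain markers were present there at a lower sum. Of the progenitor markers, SOX2 (437 CPM in forebrain and 175 CPM in contractile cells), PAX6 (58.4 and 23.7 CPM), SOX1 (64.4 and 17.7 CPM), HES5, MSI1 and PROM1 were lower in the contractile class. NES (217 and 631 CPM) and VIM (773 and 2850 CPM) were higher there. GRIA1, GRIN2B and GABRA5 were higher in the contractile class, and 12 receptor genes were lower there. KRT18 moved with the class too, from 61.3 CPM in forebrain to 314 CPM in contractile cells, and its part in these differences was not tested. The contractile over forebrain ratio could be read for 39 receptor genes, those whose UMIs would give at least 10 in the smaller group at an equal level. At a fold of 2, 3 of the 39 (7.69%) were higher and 12 (30.8%) lower, against 6.32% and 19.6% of all genes, or 8.35% and 24.8% of genes spanning at least 100 kb. Of the 26 receptor genes of that span, 2 were higher and 9 lower. The median ratio was 0.64 over the receptor genes and 0.794 over all genes.

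GRIA1 was at 52.2 CPM in forebrain cells and at 174 CPM in contractile cells, a ratio of 3.32 (3.24 to 3.41). In contractile cells GRIA1 held 94.6% of AMPA receptor UMIs. In cluster 8 it reached 244 CPM. GRIN2B was at 1.70 and 4.91 CPM (ratio 2.89, 2.49 to 3.36) and GABRA5 at 0.823 and 2.12 CPM (2.57, 2.05 to 3.22). Of the 36 receptor genes read in cluster 8 over forebrain, 5 (13.9%) were 2-fold higher and 11 (30.6%) lower, against 8.59% and 24.8% of all genes, or 12.2% and 29.0% of genes spanning at least 100 kb. Of the 25 receptor genes of that span, 4 were higher and 9 lower. GRIA1, GRIN2B and GABRA5 are taken up next. The same 3 genes had the highest ratios in cluster 8 over forebrain, at 4.68 for GRIA1, 6.69 for GRIN2B and 5.58 for GABRA5. Cluster 9, whose median mitochondrial share was 0.137%, did not share the level of GRIA1, which was 25.2 CPM there and 177 CPM in cluster 4.

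The metabotropic receptors made up much of the lower side. GRM8 was at 52.3 CPM in forebrain and 8.62 CPM in contractile cells (ratio 0.165, 0.152 to 0.179), GRM3 at 54.8 and 18.4 CPM (0.336, 0.317 to 0.356). GRM7 (0.462) and GRM2 (0.374) were lower as well. GRM5 went the other way, at 16.5 CPM in forebrain and 29.3 CPM in contractile cells, but did not reach the fold of 2. Of the ion channel subunits, GRIA3 was at 29.1 and 5.61 CPM (0.193, 0.174 to 0.214), GRIK1 at 23.0 and 5.01 CPM (0.218), GABRA3 at 11.1 and 2.37 CPM (0.214) and GABRB2 at 7.36 and 1.25 CPM (0.170, 0.135 to 0.210). GABRE, GABRB1 and GABRD were lower too, on 19, 18 and 9 UMIs in the contractile class. As a measure of what a forebrain gene leaves in that class, HES5 was at 205 CPM in forebrain and 16.02 CPM in contractile cells and EMX2 at 67.8 and 6.81 CPM.

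By family, AMPA receptor UMIs together were 2.06 times as frequent in contractile as in forebrain cells (2.01 to 2.11), a ratio that turned to 0.270 (0.2498 to 0.292) without GRIA1. Those of metabotropic receptors were 0.452 times (0.437 to 0.466) and those of GABA-A receptors 0.735 times as frequent. Depth moved with the class. Per cell instead of per UMI, 9 receptor genes were higher and 5 lower in the contractile class. Depth enters such a count, and GRIN3A, with a ratio of 0.973 per UMI, was at 1.87 per cell. The share of all genes per cell was not counted. With cluster 8 added to the forebrain class, only GRIA1 passed the fold upward (2.16), and GRIN2B and GABRA5 were at 1.58 and 1.54. The GABRB1 ratio turned above 1 in 5 alternatives, between 1.24 and 1.74.

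The 106 differentiating-progenitor-like cells carried more receptor transcripts than forebrain cells. They showed a mean of 4.37 receptor genes per thinned cell, against 2.32 in forebrain and 1.86 in contractile cells. Of the 18 receptor genes that could be compared, 7 (38.9%) were at least 2-fold higher and 4 (22.2%) lower, against 5.95% and 14.1% of all genes, or 11.9% and 14.7% of genes spanning at least 100 kb. Of the 16 receptor genes of that span, 6 were higher and 4 lower. The median ratio was 1.29, and 0.902 over all genes. Thinned cells gave 4 higher, a minimum of 30 UMIs 4 higher and 2 lower, and a clustering resolution of 1.0 gave 1 lower. The share of all genes was not counted under these settings. Phase moved with the class, since 88.7% of the differentiating and 24.4% of the forebrain cells were called G1. Between G1 cells alone (94 and 2717 cells), chosen after seeing the data, 7 of 15 (46.7%) were higher and 4 (26.7%) lower, against 6.17% and 13.2% of all genes.

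GRIK2 was at 20.1 CPM in forebrain and 226 CPM in differentiating cells, a ratio of 11.3 (10.1 to 12.5). GRM7 was at 7.39 and 89.5 CPM (12.1, 10.2 to 14.4) and GRID1 at 8.91 and 80.3 CPM (9.02, 7.49 to 10.8). GRIA3 was at 29.1 and 139 CPM (4.77, 4.16 to 5.45). GRIA1 (2.69, 2.35 to 3.06) and GRIK5 (2.65, 2.07 to 3.34) were higher too. On the lower side GRM8 was at 15.9 CPM in differentiating cells on 26 UMIs (0.305, 0.199 to 0.447), GRM5 at 5.52 CPM on 9 UMIs (0.335, 0.153 to 0.637) and GRIK1 at 11.0 CPM on 18 UMIs (0.479, 0.284 to 0.758). GABRB2 lay at the limit on 6 UMIs (0.4999, 0.183 to 1.09), and its ratio was 1.04 at a clustering resolution of 1.0. Between G1 cells GRM8 was at 9.58 CPM in differentiating and 11.96 CPM in forebrain cells, a ratio of 0.800 (0.410 to 1.41) whose interval held 1, while GRM3 (0.446) and GABRG3 (0.478) passed the fold downward there, as did GRM5 and GRIK1.

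Several receptor genes were too rare in forebrain cells to enter that count, yet were plain in the differentiating cells. GABBR2 was at 1.77 CPM in forebrain and 106 CPM in differentiating cells on 173 UMIs (ratio 59.9, 49.7 to 71.9), which put it above GABBR1 (50.3 CPM) there. UMIs of both GABA-B subunits met in 9.52% of thinned differentiating cells (4.66 to 16.8%) and in 0.234% of thinned forebrain cells (0.153 to 0.343%). These shares rise with the level of GABBR2 itself, and the shares under independent detection were not counted. GRIA2 was at 0.581 and 37.4 CPM on 61 UMIs (64.4, 46.5 to 88.3). GRIN3A, an NMDA receptor subunit of the developing brain that was named here after its values were seen, was at 0.693 and 25.8 CPM on 42 UMIs (37.2, 25.7 to 52.8). GABRD was at 4.91 CPM on 8 UMIs and GRM2 at 5.52 CPM on 9 UMIs. GRIN1 had 1 UMI in these cells, and GABRA5 had none, for which the limit of 3 UMIs set for a count of 0 is 1.84 CPM.

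Of the genes whose sequences are printed above, GABBR2 and GRIN3A had their highest level in the 106 cells, although most of their UMIs lay in the other classes (366 and 143 UMIs in forebrain cells). GABRG3 and GRM3 were at 139 and 54.8 CPM in forebrain cells and 81.6 and 30.1 CPM in differentiating cells. By family, kainate receptor UMIs were 4.41 times as frequent in differentiating as in forebrain cells (4.02 to 4.83), AMPA 3.69 times (3.38 to 4.02), NMDA 3.51 times (2.68 to 4.52) and metabotropic receptors 1.13 times (0.994 to 1.28). The leading kainate gene was GRIK2 with 76.2% of that family's UMIs, and the leading metabotropic gene GRM7 with 58.4%. GRIN3A held 67.7% of the NMDA receptor UMIs there, and without it the ratio of that family was 1.21 (0.737 to 1.87) on 20 UMIs.

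**Figure D3:**
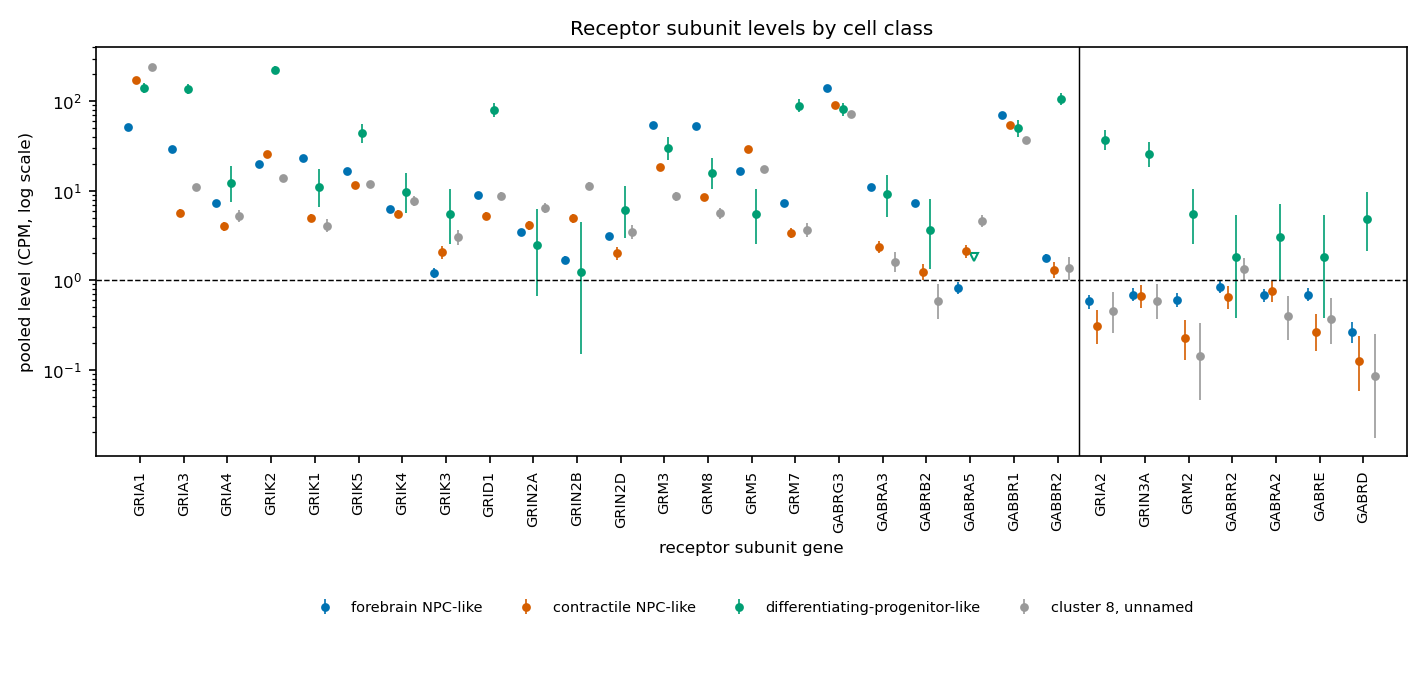
Pooled level in CPM on a log axis of 22 of the 25 receptor genes at 1 CPM or more over kept cells (left of the vertical line) and of the others with at least 3 UMIs in differentiating cells (right), in forebrain NPC-like, contractile NPC-like, differentiating-progenitor-like and unnamed cluster 8 cells; bars are 95% Poisson intervals, and the open triangle is the limit of 3 UMIs (1.84 CPM) for GABRA5, which had no UMI there. GRIA1 is lowest in forebrain cells, GRM8 and GRM3 are highest there, and GRIK2, GABBR2 and GRIA2 stand highest in differentiating cells.

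Genes for handling the transmitters and for synapses were read from lists chosen with earlier results known. Vesicular glutamate transporter SLC17A6 was at 101 CPM in differentiating cells and had no UMI in forebrain cells. SLC17A7 was at 17.8 and 0.276 CPM. GAD2 and GAD1, which make GABA, were at 3.37 and 1.11 CPM in forebrain cells, with 0 and 1 UMIs in differentiating cells, and the vesicular GABA transporter SLC32A1 was at 0.00484 CPM in forebrain cells. ABAT, which breaks GABA down, was at 9.18 CPM in forebrain, 3.38 CPM in contractile and 22.7 CPM in differentiating cells. For GABA synthesis and transport, 3 of 6 genes compared were lower in contractile cells, among them ABAT and SLC6A11 (0.489), against 19.6% of all genes, and the 1 gene compared in differentiating cells, ABAT, was higher, as were 5.95% of all genes. SLC12A2, which loads chloride into cells, was at 49.0 CPM and SLC12A5, which exports it, at 6.52 CPM in forebrain cells, and neither differed 2-fold in a class.

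Of the 14 presynaptic release genes, 3 of 14 (21.4%) were lower in contractile cells (SYP, CPLX2 and BSN), near the 19.6% of all genes. In differentiating cells 4 of the 6 compared were higher, against 5.95% of all genes. Among these were BSN (6.74), VAMP2 (2.92) and the calcium sensor SYT1, which was already at 616.5 CPM in forebrain cells and at 1474 CPM in differentiating cells. Most differentiating cells were called G1, and this list was not read in G1 cells alone. In forebrain G1 cells SYT1 was at 914 CPM, BSN at 6.23 CPM and VAMP2 at 44.8 CPM. In differentiating cells BSN was at 39.9 CPM and VAMP2 at 112 CPM. BSN reached the limit for a comparison only with its UMIs in differentiating cells, and with the limit set on the forebrain level alone 3 of 5 were higher. PCLO was at 64.8 CPM in forebrain cells. SYP, a synaptic vesicle protein, was at 3.94 and 204 CPM and SNAP25 at 3.82 and 64.4 CPM, both too rare in forebrain cells to be compared.

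Of 26 glutamate receptor auxiliary and scaffold genes, 3 of 24 compared (12.5%) were higher and 4 (16.7%) lower in contractile cells, against 6.32% and 19.6% of all genes. In differentiating cells 4 of 21 (19.0%) were higher and 2 (9.52%) lower, against 5.95% and 14.1% of all genes. GRIP1 (666 CPM), DLG2 (471 CPM) and DLG1 (327 CPM) led in forebrain cells, and DLG2 was lower in differentiating cells (0.352), as was the kainate receptor partner NETO2 (0.393). The AMPA receptor auxiliary gene SHISA9 was at 45.5 CPM in forebrain, 227 CPM in contractile and 210 CPM in differentiating cells, higher in both, like GRIA1. SHISA6 was lower in contractile cells (0.400) and higher in differentiating cells (3.63). CNIH2 (3.64) and DLG4 (2.78) were higher in differentiating cells. NETO1 (3.99) and CACNG2 (3.57) were higher in contractile cells, CACNG2 being compared only through its UMIs there, and CACNG7 (0.445), SHANK2 (0.415) and SHANK1 (0.349) lower.

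Of the 10 GABA receptor partners, GPHN, the scaffold of GABA-A receptors, was at 196 CPM and CLPTM1 at 23.9 CPM in forebrain cells. In differentiating cells 1 of 6 compared was higher, against 5.95% of all genes, and SHISA7 was lower in contractile cells (0.303), 1 of 10 compared, against 19.6%. KCTD8, an auxiliary subunit of GABA-B receptors, was at 3.07 CPM in forebrain and 168 CPM in differentiating cells, and like GABBR2 too rare in the former to be compared. For glutamate supply, GLUL was at 111 CPM and SLC1A3 at 27.7 CPM in forebrain cells. Of the 8 genes of that list, 1 of 6 compared was higher and 2 lower in contractile cells, against 6.32% and 19.6% of all genes, and 1 of 5 was lower in differentiating cells, against 14.1%. The transporter SLC1A1 was at 7.50 and 54.1 CPM in forebrain and contractile cells (7.22), SLC1A2 (0.310) and SLC17A7 (0.458) were lower in contractile cells, and SLC1A3 was lower in differentiating cells (0.266).

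Receptors for other transmitters gave a comparison outside the glutamate and GABA families. CHRNA5 was at 33.1 CPM, CHRNA7 at 22.4 CPM and GLRB at 9.87 CPM in forebrain cells. In contractile cells 4 of 10 were lower (GLRA2, CHRNA3, CHRNA4 and CHRNB2) and GLRA3 was higher (3.61), against 19.6% and 6.32% of all genes. In differentiating cells CHRNA7 (0.356 on 13 UMIs) and GLRA2 (0.0789 on 1 UMI, 0.00200 to 0.440) were lower of 4 compared, against 14.1% of all genes. In forebrain G1 cells CHRNA7 was at 17.3 CPM and GLRA2 at 1.86 CPM, against 7.97 and 0.613 CPM in differentiating cells, most of which were called G1. CHRNA3 was at 81.0 CPM in differentiating cells and 0.959 CPM in forebrain cells.

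By cell cycle state, forebrain NPC-like cells were called G1 (2717 cells), S (4643) or G2/M (3761). GRM8 had the highest S over G1 ratio of the receptor genes at 1 CPM or more. S over G1 could be read for 38 receptor genes, of which 16 (42.1%) were at least 1.5-fold higher and 3 (7.89%) lower, against 11.4% and 10.2% of all genes, or 11.9% and 11.0% of genes spanning at least 100 kb. The median ratio was 1.24, and 0.96 over all genes. G2/M over G1 could be read for 37, of which 7 (18.9%) were higher and 8 (21.6%) lower, against 10.0% and 13.0% of all genes, or 8.09% and 15.1% of those spanning at least 100 kb. For G2/M over S, 0 of 40 were higher and 11 (27.5%) lower, against 5.29% and 8.43% of all genes, or 3.88% and 9.83% of those spanning at least 100 kb. Of the 26 receptor genes of that span, 11 were higher and 3 lower in S over G1. In G2/M over G1, 4 of 26 were higher and 7 lower, and in G2/M over S 0 of 27 were higher and 9 lower. GRM2, GABRQ and, in S, GABRD could be compared with G1 only through their UMIs in the phase where they were higher. With the limit set on the G1 level alone, chosen after seeing the data, 13 of 36 (36.1%) were higher in S, against 10.0% of all genes, and 5 of 36 (13.9%) higher in G2/M, against 8.69%.

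GRM8 was at 11.96 CPM in G1, 93.4 CPM in S and 31.0 CPM in G2/M cells. Its S over G1 ratio was 7.80 (7.10 to 8.60), and its G2/M over G1 ratio 2.59 (2.34 to 2.87). GRIA4 (2.26), GABRB2 (1.92), GRID1 (1.72) and GABRA3 (1.52) were also higher in S than in G1, as were GABBR2 (2.80), GRIK3 (2.61) and GABRA5 (2.12) at levels under 3 CPM. With cluster 8 in the forebrain class the GABRA5 ratio turned to 0.839. GRM2 (13.8, 4.56 to 68.0), GABRQ (2.87), GABRE, GABRD, GABRA2 and GRIA2 passed the fold on 3, 8, 15, 7, 16 and 24 UMIs in G1, and the intervals of GABRD, GABRA2 and GRIA2 held 1.

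Other receptor genes were lower in S or G2/M than in G1. GRIA3 was at 44.5 CPM in G1, 28.9 CPM in S and 22.5 CPM in G2/M cells, ratios of 0.650 (0.610 to 0.692) and 0.507 (0.474 to 0.541). GRM5 was at 22.1, 18.5 and 12.1 CPM (G2/M over G1 0.549, 0.5004 to 0.601). GRIK1 (0.607) and GRIN2B (0.613) were lower in G2/M than in G1, as were GRIN3B (0.535) and GRIA2 (0.308), the latter pair at levels under 2 CPM. GRIA2 was at 3.92 CPM in cluster 7, which held 463 G1, 576 S and 14 G2/M cells. In the other forebrain clusters it was at 0.202 to 0.400 CPM, and its phase ratios were not read within clusters. Per cell instead of per UMI, the ratios of GRIK1 and GRIN2B turned to 1.01 and 1.02. GABRG3, highest by CPM, stayed within the fold at 139 CPM in G1, 157 CPM in S and 123 CPM in G2/M cells.

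In G2/M over G1 the higher genes beside GRM8 included GRM2 (4.50), GABRQ (3.10), GRIK3 (2.04), GABRE (1.91) and GABRA2 (1.90). The GRIK3 ratio turned to 0.921 with cluster 8 in the forebrain class. Lower in G2/M than in S were, among others, GRM8 (0.332, 0.318 to 0.347), GRM5 (0.656), GRID1 (0.551), GRIA4 (0.534), GABBR2 (0.519), GABRB2 (0.494), GRM2 (0.327) and GRIA2 (0.204). GRIN1 and GABRA6 were lower too, on 10 and 9 UMIs in G2/M, with intervals that held 1. Depth moved with phase, from a median of 13185 UMIs in G1 to 16321 in S and 21516 in G2/M cells. Per cell instead of per UMI, 17 receptor genes were higher and 1 lower in G2/M than in G1, and 1 was lower in S. Depth enters such a count, and GRIN2A, with a G2/M over G1 ratio of 1.01 per UMI, was at 1.67 per cell. The share of all genes per cell was not counted.

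**Figure D4:**
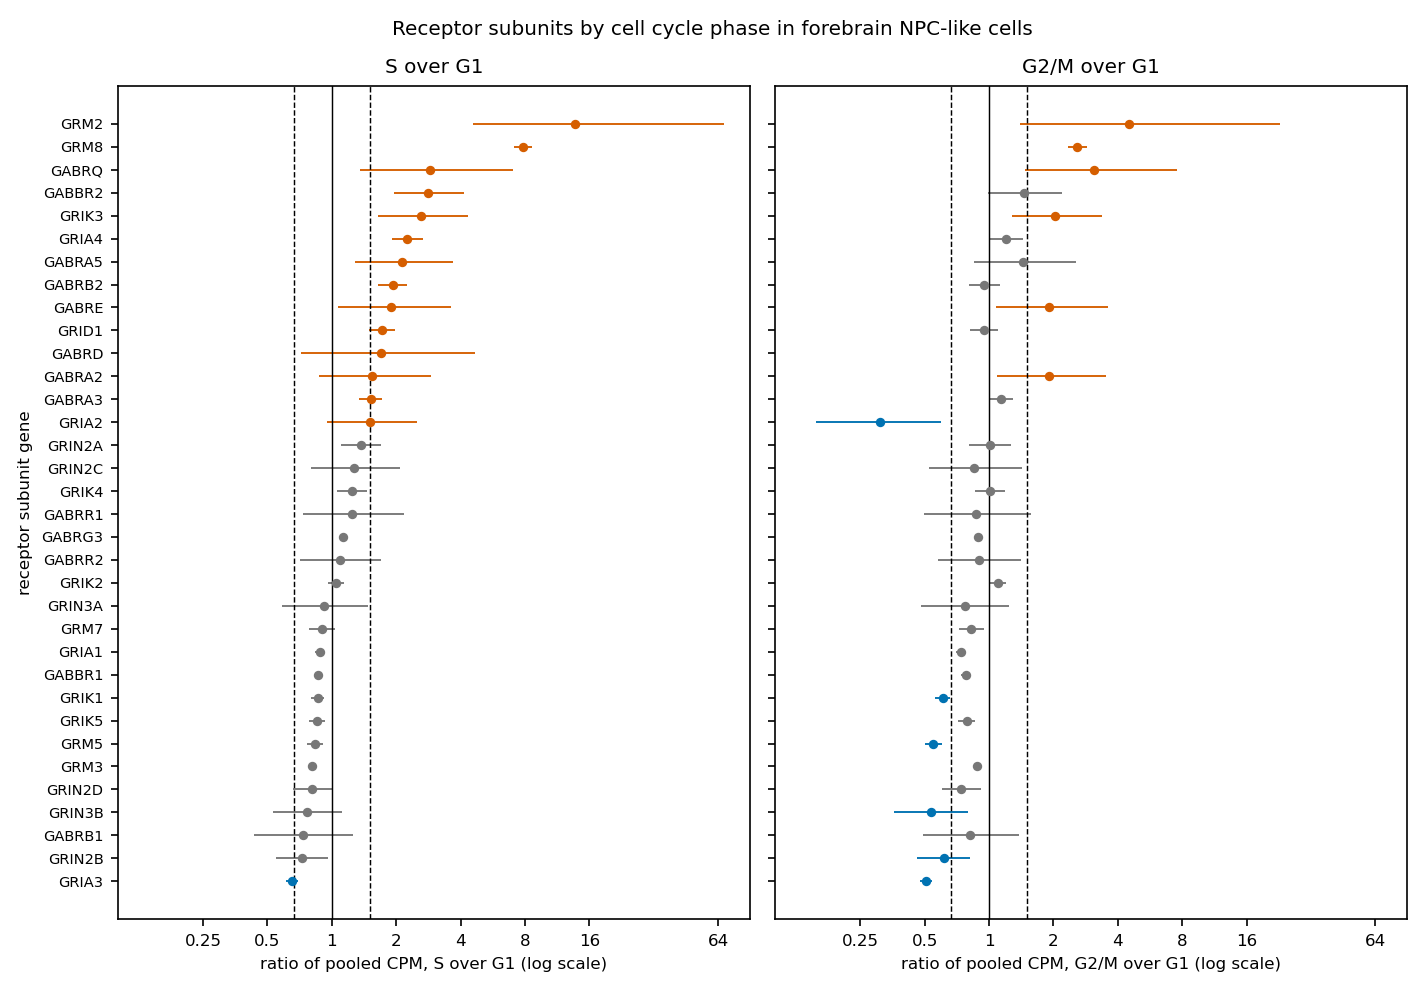
Ratio of pooled CPM on log axes, S over G1 (left) and G2/M over G1 (right), in forebrain NPC-like cells for receptor genes that could be compared; bars are exact conditional 95% intervals, dashed lines mark a fold of 1.5 either way, and orange and blue points pass it upward and downward. GRM8 has a ratio of 7.80 in S and 2.59 in G2/M, and GRIA3 lies at 0.650 and 0.507.

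Phase and cluster were not independent, since 2099 of the 2717 G1 cells were in cluster 1 and 1630 G2/M cells in cluster 5. The 12 receptor genes at 10 CPM or more were therefore also read within clusters. GRM8 kept a ratio of S over G1 above 1.5 in each of the 4 clusters with enough cells, at 2.61 in cluster 1 (2.22 to 3.06), 4.61 in cluster 3 (3.04 to 7.37), 2.39 in cluster 6 (0.951 to 7.73) and 9.85 in cluster 7 (7.70 to 12.8). It was the only one of the 12 that passed the fold upward in clusters 1 and 3, whereas 5 of the 12 passed it in cluster 6 and 3 in cluster 7, GRM8 included. Shares over all genes were not counted within clusters. In cluster 6, with 75 G1 cells, the intervals of GRM8 and GRIK2 held 1. There GRIK1 (0.375) and GRM5 (0.489) passed the fold downward, the latter with an interval that held 1. In cluster 3, with 80 G1 cells, 4 passed it downward, namely GRIA1 (0.625), GRM3 (0.612), GRIA3 (0.619) and GRIK1 (0.632). Within cluster 2, G2/M over S was 0.471 for GRM8 (0.445 to 0.499). G2/M over G1 was read within cluster 6 alone, where GRM8 was at 1.13 (0.466 to 3.56), an interval that held 1. GRIA3 was under 1 in S over G1 within all 4 clusters, between 0.619 and 0.821, though the interval in cluster 6 held 1. Within cluster 2 its G2/M over S ratio was 1.18 (1.06 to 1.33), on the other side of 1 from the pooled levels.

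Across the 6 forebrain clusters, GRM8 ranged from 7.15 CPM in cluster 6 to 99.96 CPM in cluster 2, which is led by histone genes. GRIA3, by contrast, was highest in cluster 7 (66.4 CPM) and lowest in cluster 6 (18.05 CPM). Cluster 7 also had the highest forebrain levels of GRM7 (15.8 CPM), GRID1 (16.4 CPM), GABBR2 (3.40 CPM) and GRIN2A (8.86 CPM), of which GRM7, GRID1 and GABBR2 were also high in differentiating cells. GABBR1 was highest in cluster 1 (87.6 CPM).

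**Figure D5:**
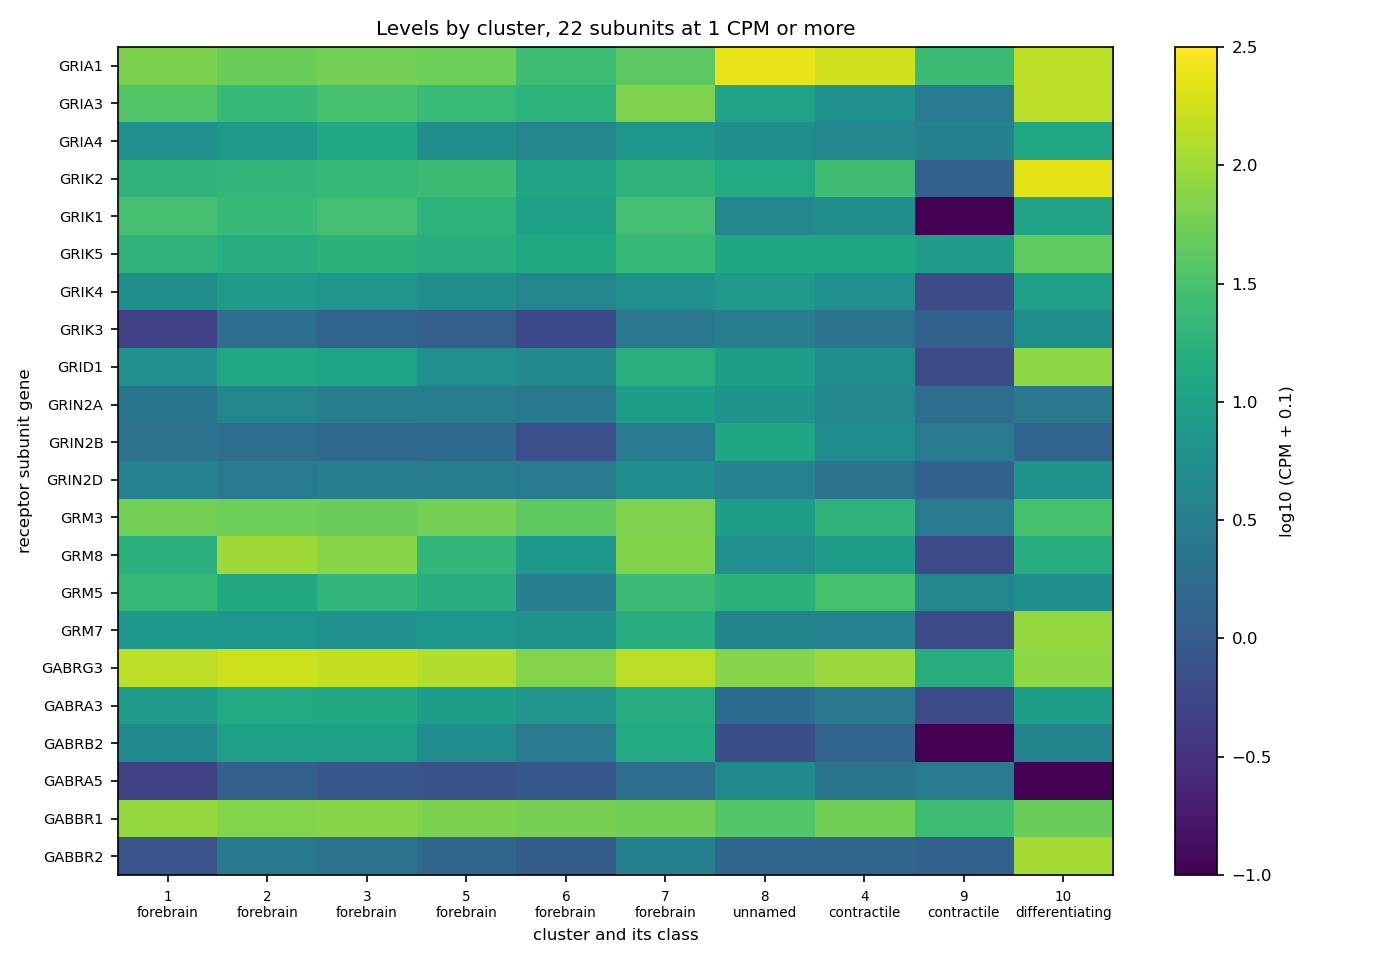
Level of 22 of the 25 receptor genes at 1 CPM or more in each of the 10 clusters, as colour on a scale of log10 (CPM + 0.1), with clusters ordered by class. GRM8 is bright in clusters 2, 3 and 7, GRIA1 in clusters 4 and 8, and GRIK2 and GABBR2 in cluster 10.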

How the data were processed

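The authors deposited raw counts of UMIs per gene and cell barcode from 1 library, made with Cell Ranger 7.0.1 at default settings on GRCh38 and with no normalization. The version of the gene annotation and the strand setting are not given in the sources used here. The authors also used Seurat 4.4.0, and the same limits on genes and mitochondrial share were applied here. The table held 327640709 UMIs, and 801 of 14726 barcodes were left out.

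Cells were clustered with scanpy 1.11.5 on the 2000 most variable genes without the receptor genes (30 components, 20 neighbours, shared-neighbour graph) with leidenalg 0.10.2 at resolution 0.5. A class was named when 3 of its markers reached 20 CPM and a fold of 3 over the other cells, and forebrain NPC-like when 3 forebrain and 3 progenitor markers reached 50 CPM. The rule that left cluster 8 unnamed was set after the clusters were seen. Phases came from 43 S and 54 G2/M genes. Scrublet (expected rate 8%) called 1 barcode, too few to be a working call, and doublets were left in. Thinning to 5000 UMIs left out 28 of the 13925 kept cells (17 forebrain, 8 contractile, 1 differentiating and 2 of cluster 8).

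Receptor genes were matched by symbol, and the lists were chosen with earlier results of these data known. Named were receptor genes at 1 CPM or more and those past a fold of 2 between classes or 1.5 between phases, and list genes past the fold in a class or among the 3 highest of their list; some of these genes are not reported here by name or in the figures, though the counts over all receptor genes include them. Ratios were read without a test, since there was 1 library, and the calculation was tested on simulated data. A count of 0 was given the limit of 3 UMIs. Gene spans came from GENCODE 44.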

Additional observations from a re-analysis of the deposited data

How the results depend on the processing

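No paired analysis was possible because there was 1 library. Of the 136 recomputed counts of receptor genes, 112 stayed within 1.5 times the reported count. Per cell instead of per UMI, contractile cells had 9 receptor genes higher and 5 lower, G2/M cells 17 higher and 1 lower than G1, and S cells 1 lower. Depth enters these counts. No share of all genes was counted for them or for the other recomputed counts that follow, which show only how far the counts of receptor genes moved. A level of 0.2 CPM gave 38 receptor genes on. In differentiating cells, thinned cells gave 4 higher, a minimum of 30 UMIs gave 4 higher and 2 lower, and no minimum gave 22 higher and 12 lower. Without a minimum, genes with few UMIs enter, and genes such as GABBR2 enter through their UMIs in differentiating cells. The lower count there was 2 with the receptor genes among the variable genes, 2 when clustered on thinned cells and 1 at resolution 1.0. Thinned cells gave 5 lower in G2/M, and a minimum of 30 UMIs gave 3 higher. Without the highest Scrublet scores 7 were lower in S, and at resolution 1.0 there were 5. Chosen after seeing the data, cluster 8 in the forebrain class gave 1 higher in contractile and 2 lower in differentiating cells, and a fold of 2 between phases gave 4 higher and 2 lower in G2/M and 8 higher and 1 lower in S. The GABRB1 ratio in contractile cells turned to 1.35 without the highest Scrublet scores, 1.74 with receptor genes among the variable genes, 1.24 at resolution 0.2, 1.47 when clustered on thinned cells and 1.28 with cluster 8 in the contractile class. Per cell, G2/M over G1 was 1.02 for GRIN2B and 1.01 for GRIK1. GABRB2 in differentiating cells was 1.04 at resolution 1.0, and with cluster 8 in the forebrain class GRIK3 was 0.921 in G2/M and GABRA5 0.839 in S. The causes were not tested. Of 934 recomputed levels and ratios of named genes, 683 stayed within their counting interval, 241 moved outside it and 10 changed direction. The number of cells limited the differentiating class most, where 29 receptor genes could not be compared at 106 cells.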
